A study of Mus musculus with 6 samples.

Results

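The data describe 9 mouse genes of GABA synthesis and interneuron identity in nuclei taken from mouse brain. They are Gad1, Gad2, Slc32a1, Pvalb, Lamp5, Adarb2, Nxph1, Dlx6os1 and Kcnc2, chosen by name, with earlier results of these data known. All 9 were found in each table, among 19006 mouse genes in the SCRB-seq wells, 21987 in the SMART-Seq2 wells, 23295 in the plate nuclei and 19905 in the droplet nuclei. The mice were C57BL/6J animals of 8 to 12 weeks, the tissue is labelled cortex, and nothing in the labels says how many animals were used or whether tissue was pooled. Nuclei came from 50 µm scrolls of formalin-fixed, paraffin-embedded tissue (FFPE) or from frozen tissue. Paraffin was removed with mineral oil and heat, with xylene and heat, or with xylene at room temperature.

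4 kinds of library were made. In bulk SCRB-seq, a 3′ counting method, each of the 3 paraffin methods and the frozen tissue had 16 wells, of which 8 held 10 sorted nuclei and 8 held 100. In bulk SMART-Seq2, a full-length method without molecular identifiers, each had 3 wells, of 10, 50 and 100 nuclei. Single nuclei were sorted into plates for SMART-Seq2, with 143 FFPE and 137 frozen nuclei in the table of the whole series and a separate batch of 98 FFPE nuclei. The annotation of the plates gives the left hemisphere for FFPE and the right hemisphere for frozen nuclei, so fixation and hemisphere cannot be told apart. The droplet table holds 7031 FFPE nuclei from 1 library, with no barcode shared between nuclei, in 12 classes named by the authors. The wells of a method all belong to 1 sample, so p-values between wells measure only the spread between wells, which may be technical.

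GABA is the main inhibitory transmitter of the forebrain. It is made from glutamate by the enzymes GAD67, the product of Gad1, and GAD65, the product of Gad2, and is loaded into synaptic vesicles by the transporter that Slc32a1 encodes. Cortical interneurons use this machinery and fall into classes marked by other genes: Pvalb, a calcium-binding protein of fast-spiking cells, Lamp5, a membrane protein of neurogliaform cells, and Adarb2, a catalytically inactive relative of RNA-editing enzymes in cells of the caudal ganglionic eminence. Nxph1 encodes a secreted ligand of neurexins, Dlx6os1 a long noncoding RNA of the Dlx5 and Dlx6 locus, and Kcnc2 a potassium channel subunit that lets neurons fire fast.

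The genes differ widely in size and surroundings, in the GRCm38 annotation. Slc32a1 spans 4.98 kb on chromosome 2 (158610767 to 158615748), whereas Adarb2 spans 566 kb on chromosome 13 (8202866 to 8768747). Gad1 lies on chromosome 2 at 70553072 to 70602014 and overlaps Gad1os, and Dlx6os1 lies on the minus strand of chromosome 6 at 6820189 to 6871592, over the whole of Dlx6. No source used here says whether reads were counted by strand, so Dlx6os1 values may include reads of Dlx6.

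Sequences upstream of 3 of the genes are shown because 1 letter pattern separates them. The pattern is TAATTA, the core that homeodomain proteins such as the DLX factors are known to bind, searched on both strands in the 250 bases before each RefSeq start (GRCm38.p6). It was present at 1590 of 32851 starts (4.84%), and at 3 of the 15 starts of the 9 genes, namely the start of Adarb2 and both starts of Dlx6os1. A second pattern, TATAAA, was present at 12.4% of all starts and, among the 9 genes, at starts of Gad1 and Dlx6os1. Capitals mark TAATTA, and exonic bases were left out of the windows. A match is only a run of letters, and no binding was measured.
Gad1 (chr2:70561879-70562041, plus strand): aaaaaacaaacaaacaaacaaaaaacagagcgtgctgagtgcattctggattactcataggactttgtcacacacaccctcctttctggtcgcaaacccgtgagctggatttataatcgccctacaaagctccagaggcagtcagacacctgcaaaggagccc
Adarb2 (chr13:8202616-8202865, plus strand): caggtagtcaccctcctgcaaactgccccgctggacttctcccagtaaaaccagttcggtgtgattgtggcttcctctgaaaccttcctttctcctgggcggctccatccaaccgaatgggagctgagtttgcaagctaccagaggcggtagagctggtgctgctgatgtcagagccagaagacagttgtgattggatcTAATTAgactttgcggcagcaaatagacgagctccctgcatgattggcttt
Dlx6os1 (chr6:6861684-6861933, minus strand): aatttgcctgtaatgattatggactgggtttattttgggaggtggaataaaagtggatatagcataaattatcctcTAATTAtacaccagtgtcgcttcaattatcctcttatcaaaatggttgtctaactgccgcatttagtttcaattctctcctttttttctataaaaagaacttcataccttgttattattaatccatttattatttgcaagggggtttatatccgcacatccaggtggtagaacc
The Adarb2 match lies 46 bases before the start, and the shown Dlx6os1 match lies 169 bases before its start. The Gad1 window has no TAATTA.

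Depth set what could be measured. SCRB-seq wells held between 7512 and 167144 mouse counts and SMART-Seq2 wells between 270363 and 942966. Plate nuclei held a median of 255329 counts in frozen and 47887 in FFPE tissue, and droplet nuclei held 235 to 998 unique molecular identifiers (UMIs). The tissue label was checked with marker lists. Gabra6, Cbln1, Cbln3, Zic1 and Etv1, markers of cerebellar granule neurons, all passed the test as higher in FFPE than in frozen wells in both assays. The summed level of that list ran from 284 to 6115 CPM (counts per 1000000 mouse counts) in FFPE and from 0 to 111 CPM in frozen SCRB-seq wells, with Gabra6, Cbln3 and Zic4 at 0 in frozen wells. Of the cortical glutamatergic list, Rorb and Nrgn were lower in FFPE SCRB-seq wells. By method, the median of the granule list was 1720 CPM after mineral oil, 1454 CPM after heated xylene, 1144 CPM after room-temperature xylene and 39.8 CPM in frozen wells. The part of these lists in the differences below was not tested.

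In the SCRB-seq wells, Gad1 and Adarb2 were the 2 genes with enough counts for the main test, and both were high after either xylene treatment and low after mineral oil and in frozen tissue. Gad1 had a median of 287 CPM after heated xylene (69.1 to 531 CPM), 340 CPM after room-temperature xylene (109 to 608 CPM), 24.2 CPM after mineral oil (0 to 120 CPM) and 17.1 CPM in frozen wells (0 to 65.3 CPM). Every xylene well lay above every frozen well, while the mineral oil wells overlapped the frozen range throughout its length. Gad1 was 5.78-fold higher in FFPE than in frozen wells, a log2 difference of 2.53 (SE 0.36, adjusted p = 6.18e-09, edgeR quasi-likelihood test with Benjamini-Hochberg adjustment). The FFPE value in that contrast is the mean of the 3 methods on the log scale.

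Adarb2 was also high after both xylene treatments, with more overlap between groups. Its median was 541 CPM after heated xylene (205 to 1421 CPM), 546 CPM after room-temperature xylene (43.4 to 917 CPM), 60.9 CPM after mineral oil (0 to 384 CPM) and 102 CPM in frozen wells (48.5 to 311 CPM). The frozen wells sat inside the mineral oil range, and some xylene wells overlapped them. Adarb2 was 2.68-fold higher in FFPE than in frozen wells by edgeR, a log2 difference of 1.42 (SE 0.34, adjusted p = 2.41e-04). Thus 2 of the 2 genes tested were called and both were higher, where 58.0% of 1478 genes were called. Both had enough counts for the test through the xylene wells, where they were high. The filter thus favoured this direction, and the 2 of 2 is not read as a trend. With DESeq2 size factors the log2 differences were 2.02 for Gad1 and 0.82 for Adarb2, while the median of all genes moved from 0.00 to -0.58 and the share of calls that were higher fell from 52.2% to 31.4%. In bulk wells, fewer cells of a type and less RNA per cell cannot be told apart.

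**Figure D1:**
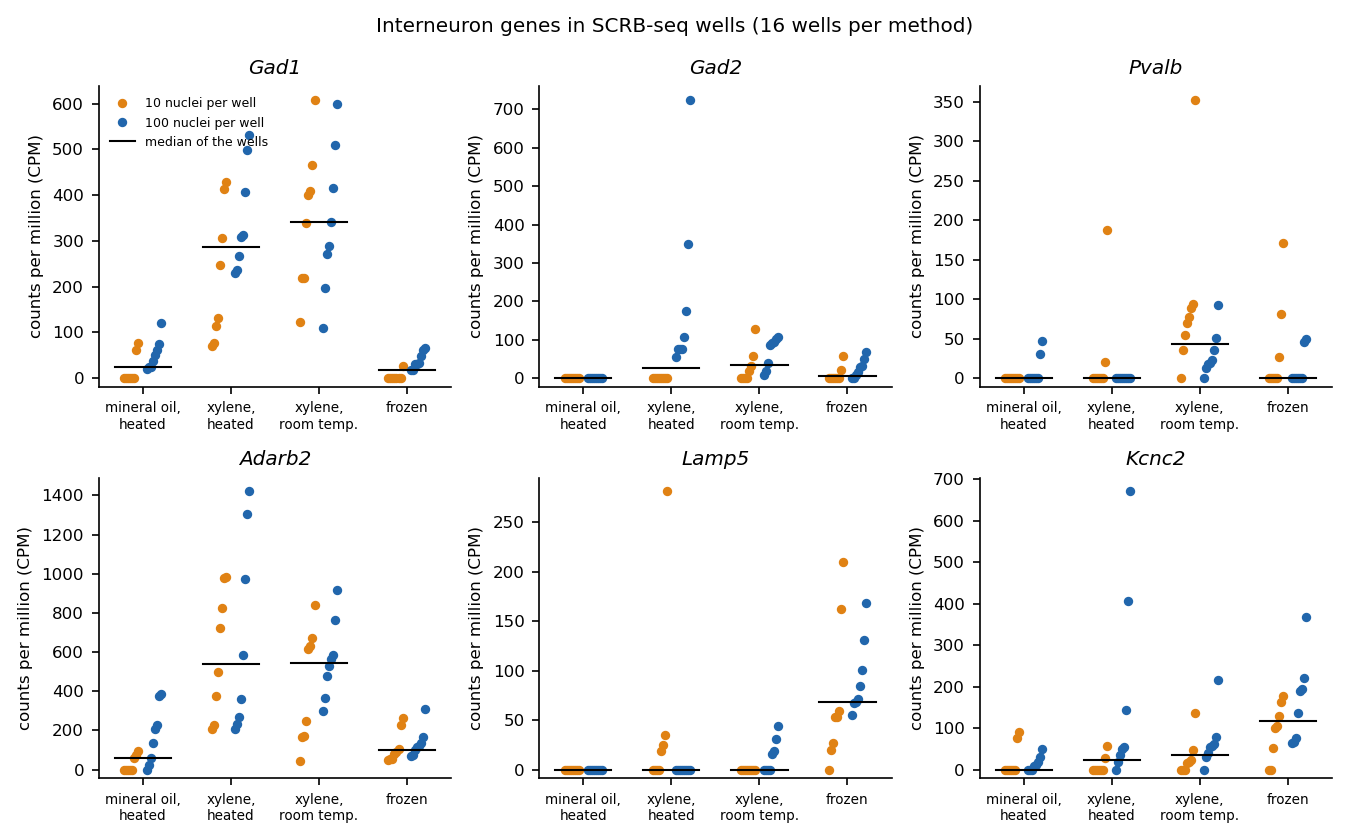
CPM of 6 genes in each SCRB-seq well, by paraffin removal method and frozen tissue, with wells of 10 and 100 nuclei in different colours and the median of the 16 wells as a line. Gad1 and Adarb2 stand high in both xylene groups, Gad2 has no count after mineral oil, Pvalb has counts in 14 room-temperature xylene wells, and Lamp5 and Kcnc2 have their highest medians in frozen wells.

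The direct comparison of the paraffin methods gave large differences for both genes. Gad1 was 6.85-fold lower after mineral oil than after heated xylene, a log2 difference of -2.78 (SE 0.38, adjusted p = 5.33e-07, edgeR). Against room-temperature xylene it was 8.41-fold lower, a log2 difference of -3.07 (SE 0.38, adjusted p = 6.47e-08, edgeR). Adarb2 was 5.10-fold lower than after heated xylene (log2 difference -2.35, adjusted p = 9.81e-05) and 4.06-fold lower than after room-temperature xylene (log2 difference -2.02, adjusted p = 7.98e-04) by edgeR. Each contrast called 2 of the 2 genes tested, both lower, where 8.52% and 10.3% of 1080 genes were called. Both genes again entered the test through the xylene wells, so the count filter favoured lower values after mineral oil. The 2 of 2 is not read as a trend. The calls of all 1080 genes in the second contrast were higher in 24.3% of cases, and in 13.1% with DESeq2 size factors. Meis2, a transcription factor of striatal and olfactory interneurons, and the myelin gene Mbp were also lower after mineral oil in both contrasts, with log2 differences of -2.80 and -3.30 for Meis2. Meis2 was 1 of 3 genes tested on the list of striatal spiny neurons, and the other 2 were not called in either contrast (list medians 0.15 and -0.15). Cbln3 and Gabra6, of the granule neuron list, were higher after mineral oil than after room-temperature xylene, by 1.87 and 1.01 on the log2 scale. The other 3 of the 5 list genes tested were not called. Against heated xylene 0 of the 5 were called (list median -0.09).

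The xylene treatments could not be separated by Gad1 or Adarb2. Between heated and room-temperature xylene the log2 difference was -0.30 for Gad1 (SE 0.31, adjusted p = 0.730) and 0.33 for Adarb2 (SE 0.38, adjusted p = 0.773) by edgeR. The comparison called 0 of the 2 genes tested and 1.94% of 1080 genes, 52.4% of them higher, or 28.6% with DESeq2 size factors. Wells that shared a method and a nuclei number were pooled as 1 library, so the effects of pool and method cannot be told apart.

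The other 7 genes did not pass the filter on low counts and are given by their counts. Gad2 had 139 counts after heated xylene, all in the 8 wells of 100 nuclei and none in the 8 of 10 nuclei, and 69 after room-temperature xylene, in 12 wells. It had 25 counts in frozen wells and 0 after mineral oil, where 683589 mouse counts were read. Set against a floor of 3 counts over the group, Gad2 was at least 28.1-fold lower after mineral oil than after heated xylene and at least 13.5-fold lower than after room-temperature xylene. The heated xylene value thus comes from 1 library pool, and a single well held 43.2% of its counts. Slc32a1, the vesicle transporter gene, also had 0 counts after mineral oil, 16 after heated xylene, 31 after room-temperature xylene and 3 in frozen wells.

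The class markers took different directions. Lamp5 had 93 counts in 15 of 16 frozen wells, with a median of 68.2 CPM, and 0, 25 and 12 counts after mineral oil, heated xylene and room-temperature xylene. The 25 counts after heated xylene were all in wells of 10 nuclei, and 88.0% came from 1 well. Most wells of each paraffin method had no Lamp5 count, the reverse of Gad1. Kcnc2 also had its highest median in frozen wells, with 163 counts (median 118 CPM, in 14 wells) and 10, 108 and 69 counts in the FFPE groups in the same order. Of the 16 wells, 9 had a Kcnc2 count after heated xylene and 12 after room-temperature xylene, and wells with 38, 32 and 21 counts made up most of the 108. Pvalb had 79 counts in 14 wells after room-temperature xylene, 12 in 2 wells after heated xylene, 6 in 2 wells after mineral oil and 17 in 5 frozen wells. Nxph1 had 45, 91 and 74 counts in the FFPE groups and 88 in frozen wells, and its well values overlapped between all 4 groups. Dlx6os1 had 10, 34, 87 and 18 counts in the same order.

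With a filter of at least 10 counts over the wells, all 9 genes could be tested in SCRB-seq. Of the 9, 2 were then called higher in FFPE than in frozen wells and 2 lower, where 31.9% of 14524 genes were called. Lamp5 was 9.93-fold lower in FFPE (log2 difference -3.31, SE 0.53, adjusted p = 3.28e-07, edgeR) and Kcnc2 3.01-fold lower (log2 difference -1.59, SE 0.45, adjusted p = 0.00337, edgeR). After mineral oil, 6 of 9 genes were lower than after heated xylene, where 26.6% of 13483 genes were called, and 7 of 9 were lower than after room-temperature xylene, where 22.0% were called. Nxph1 alone of the 9 was called in neither contrast. Pvalb was the 1 gene of 9 that separated the xylene treatments, 5.20-fold lower after heated xylene (log2 difference -2.38, SE 0.72, adjusted p = 0.0107, edgeR), where 21.1% of genes were called.

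The Gad1 contrast differed between wells of 10 and 100 nuclei, which were also separate library pools. In wells of 10 nuclei, 1 frozen well had any Gad1 count (26.6 CPM) and 7 had none, and the log2 difference of FFPE from frozen was 4.18 (adjusted p = 2.95e-05, edgeR). In wells of 100 nuclei it was 2.10 (adjusted p = 4.84e-06, edgeR), with frozen wells at 16.9 to 65.3 CPM. The difference between these contrasts was -2.39 on the log2 scale (adjusted p = 0.0421, edgeR interaction test), where 18.9% of 1478 genes were called. Adarb2 was not called in wells of 10 nuclei alone (log2 difference 0.87, adjusted p = 0.153, edgeR) and was called in wells of 100 (1.48, adjusted p = 0.00158, edgeR). For Adarb2 the difference between the contrasts was 0.47 (adjusted p = 0.686, edgeR). Frozen wells of 10 nuclei held 17611 to 61826 counts in all and those of 100 nuclei 58260 to 167144. The part of depth in this difference was not tested.

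The SMART-Seq2 wells gave each gene 9 FFPE values and 3 frozen values. Adarb2 read 566, 740 and 577 CPM after mineral oil in wells of 10, 50 and 100 nuclei, 225, 1951 and 1031 CPM after heated xylene and 497, 894 and 1523 CPM after room-temperature xylene. Frozen wells read 5.61, 118 and 122 CPM. All FFPE wells, mineral oil included, lay above all frozen wells. Adarb2 was 9.03-fold higher in FFPE by edgeR, a log2 difference of 3.17 (SE 0.72, adjusted p = 0.0103). It was the 1 gene called of the 7 tested, where 4.09% of 9092 genes were called.

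Gad1 pointed the same way without passing the test. It read 246, 49.7 and 56.5 CPM after mineral oil, 248, 270 and 80.7 CPM after heated xylene, 347, 437 and 711 CPM after room-temperature xylene and 0, 66.6 and 30.0 CPM in frozen wells. The frozen wells overlapped the lower mineral oil wells only. The log2 difference was 2.72 (SE 0.95, adjusted p = 0.125, edgeR). Dlx6os1 read 7.80 to 199 CPM in FFPE wells and 0, 25.9 and 4.29 CPM in frozen wells, with a log2 difference of 3.10 (SE 1.24, adjusted p = 0.201, edgeR). For Gad2 the log2 difference was 1.94 (SE 1.22, adjusted p = 0.520, edgeR). DESeq2 called Gad1, Adarb2 and Dlx6os1 as higher, 3 of 7, where it called 7.05% of 9092 genes.

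Lamp5 and Kcnc2 were again high in frozen wells. Lamp5 read 49.4, 111 and 83.6 CPM in frozen wells and at most 23.0 CPM in any FFPE well, with 4 of 9 FFPE wells at 0. The groups did not overlap, yet the log2 difference of -3.65 (SE 1.26) missed the threshold with an adjusted p of 0.120 by edgeR. Kcnc2 read 301, 673 and 266 CPM in frozen wells and 0 to 376 CPM in FFPE wells, with a log2 difference of -2.19 (SE 0.74, adjusted p = 0.113, edgeR). Under the filter of at least 10 counts, 3 of 9 genes were called by edgeR, Gad1 and Adarb2 higher and Kcnc2 lower (adjusted p = 0.0397), where 3.58% of 13726 genes were called. Nxph1 ranged from 0 to 407 CPM in FFPE and from 44.9 to 570 CPM in frozen wells (log2 difference -0.84, adjusted p = 0.800, edgeR). Slc32a1 and Pvalb had 0 counts in the frozen wells, and 20 and 41 counts in the FFPE wells.

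**Figure D2:**
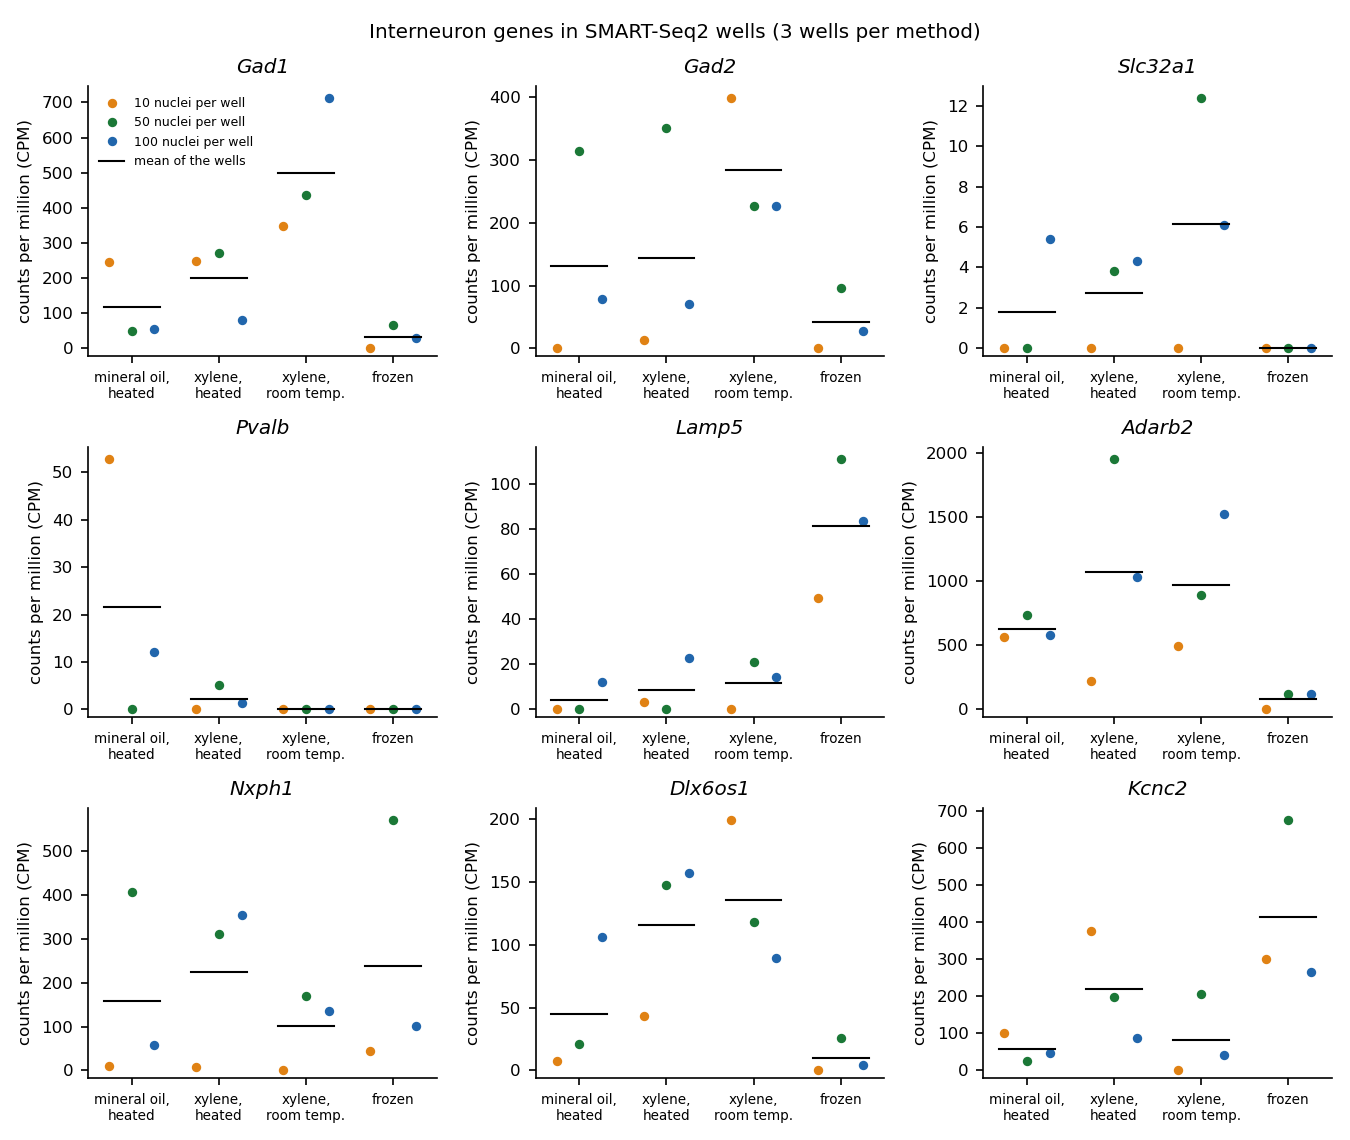
CPM of the 9 genes in each SMART-Seq2 well, coloured by the number of nuclei, with the mean of the 3 wells of each method as a line. All 9 FFPE wells lie above the 3 frozen wells for Adarb2, and below them for Lamp5.

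Between the paraffin methods edgeR called no gene in SMART-Seq2. With 3 wells a method, this does not show that the methods gave equal levels. Of the 6 genes of the set that could be tested, 0 passed in any of the 3 method pairs, where 0% of 8372 genes were called by edgeR. At an unadjusted p under 0.05, edgeR gave 314 genes for mineral oil against heated xylene and 199 for heated against room-temperature xylene. For mineral oil against room-temperature xylene it gave 379. Of the 6 genes, 1 was among the 379 and 0 among the 314 and the 199. In the same order of pairs, DESeq2 called 20, 1 and 26 genes, with 0 of the 6 among them.

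Other genes of inhibitory neurons were read from lists. Of 9 genes of GABA synthesis, packaging, uptake and breakdown, 1 passed the count filter in SCRB-seq, Gad1 itself, and 5 in SMART-Seq2, of which 0 were called. Of 26 interneuron class markers, 6 were tested in SCRB-seq, where 4 were higher in FFPE and 2 lower, against 58.0% of all genes called. Reln, a secreted protein of layer 1 interneurons and of cerebellar granule neurons, was higher by 1.93, Kcnc1 by 1.06 and Erbb4 by 0.84 on the log2 scale. Cck, a neuropeptide also made by cortical glutamatergic neurons, was lower, with a log2 difference of -4.32, and so was Grip1 (-0.87). In SMART-Seq2, 14 of the 26 were tested, of which Adarb2, Reln (3.12) and Cntnap4 (2.14) were higher and Cck (-4.76) lower, against 4.09% of all genes called. The medians over the tested list genes are not read as a trend, since the lists were made with results of these data known. Of 15 markers of cerebellar inhibitory neurons, 3 were tested in SCRB-seq, of which Kit was higher (1.97) and Grm8 (-0.70) and Ptprk (-1.77) lower, and 6 in SMART-Seq2, of which Sorcs3 was lower (-4.16). Of 11 striatal markers, 3 were tested in SCRB-seq, of which Foxp1 was higher (0.60) and Pde10a lower (-1.48), and 7 in SMART-Seq2, of which 0 were called. Of 13 interneuron transcription factors, 0 had enough counts in SCRB-seq and 5 in SMART-Seq2, with 0 called.

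In single plate nuclei, the pooled levels of Gad1 and Adarb2 were not higher in FFPE than in frozen tissue in the table of the whole series, while Lamp5 and Kcnc2 were lower in FFPE as in the wells. Pooled over nuclei, Gad1 stood at 239 CPM in FFPE and 257 CPM in frozen nuclei, and Adarb2 at 535 and 761 CPM. Of the 9 genes, 1 had the higher pooled level in FFPE, namely Pvalb at 83.5 CPM against 38.4 CPM. FFPE and frozen nuclei were on different plates, and the FFPE plates differed from each other. Gad1 stood at 41.8 and 299 CPM on the FFPE plates MB14 and MB16 and at 241 and 273 CPM on the frozen plates. Adarb2 stood at 89.5 and 673 CPM on MB14 and MB16 and at 881 and 646 CPM on the frozen plates. Pvalb went the other way, at 178 and 54.4 CPM on MB14 and MB16, both above the frozen plates (43.1 and 34.0 CPM). There was 1 sample of nuclei per group, so no test was made, and the intervals cover counting error only, since reads without molecular identifiers are not independent molecules. Lamp5 stood at 15.0 CPM in FFPE and 171 CPM in frozen nuclei (11.4-fold). Gad2 followed a 3.93-fold and Kcnc2 a 4.01-fold ratio in the same direction, at 48.3 against 190 CPM and 70.6 against 283 CPM. Nxph1 stood at 155 and 312 CPM, Dlx6os1 at 30.7 and 91.2 CPM and Slc32a1 at 9.19 and 19.6 CPM.

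Detection was lower in FFPE nuclei, for Pvalb too (26.6% against 40.9%). At least 1 count of Gad1 was found in 41 of 143 FFPE nuclei (28.7%, exact 95% interval 21.4 to 36.8%) and in 69 of 137 frozen nuclei (50.4%, 41.7 to 59.0%). Lamp5 was found in 10.5% of FFPE and 65.7% of frozen nuclei, and Adarb2 in 46.9% and 65.7%. All 9 genes were detected in a smaller share of FFPE than of frozen nuclei, which had the greater median depth (255329 against 47887 counts). The share over all genes was not computed, here or after thinning, so the lower detection is not read as particular to these 9. After thinning each nucleus to 10000 counts, which left out 8 FFPE and 10 frozen nuclei, the shares for Adarb2 were 34.1% and 31.5%, and the other 8 genes kept the smaller share in FFPE. The intervals overlapped for Adarb2, Gad1, Slc32a1, Pvalb and Nxph1. Gad1 then stood at 17.8% and 24.4%, and Lamp5 at 5.19% and 34.6%.

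A few nuclei carried much of each pooled value. In FFPE, 1 nucleus held 78.8% of the Gad2 counts and another 47.1% of the Kcnc2 counts, and in frozen tissue 1 nucleus held 45.8% of the Adarb2 counts. 9 FFPE nuclei of the whole-series table were not in the table of plate batch 2, where the other 134 had the same values. The batch of these 9 was not determined. These 9 were deep, with 13521527 of the 23616215 FFPE counts, and held 65.2% of the FFPE Gad1 counts and 81.8% of the Gad2 counts. Without them, Gad1 stood at 195 CPM, Gad2 at 20.5 CPM and Adarb2 at 298 CPM in FFPE, the frozen level was 9.26-fold higher for Gad2 and 5.89-fold for Lamp5, and Pvalb was still the 1 gene with the higher level in FFPE, at 125 CPM. The mean of the single-nucleus values for Pvalb was 124 CPM in FFPE and 121 CPM in frozen nuclei, a ratio of 1.02.

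The separate FFPE batch of 98 nuclei differed from batch 2. Pvalb had 12 counts in 3 of 98 nuclei there (0.691 CPM), against 125 CPM in batch 2. Adarb2 stood at 1410 CPM against 298 CPM and Gad2 at 86.8 CPM against 20.5 CPM. Gad1 stood at 138 and 195 CPM and Kcnc2 at 88.2 and 82.4 CPM. The Gad1 value of the separate batch joins plate MB17 at 488 CPM, where 1 nucleus held 72.4% of the counts, and plate MB18 at 74.3 CPM. Set beside frozen nuclei, the separate batch was higher for Adarb2 (1410 and 761 CPM), Dlx6os1 (126 and 91.2 CPM) and Slc32a1 (21.5 and 19.6 CPM). Thinned to 10000 counts, Adarb2 stood at 1286 CPM in the separate batch and 469 CPM in frozen nuclei, and Slc32a1 at 6.67 and 25.2 CPM. Gabra6, the granule neuron marker, was found in 32.7% of the nuclei of the separate batch, 39.2% of the 143 FFPE nuclei and 0.730% of the frozen nuclei. The part of granule neurons in the batch difference was not tested.

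**Figure D3:**
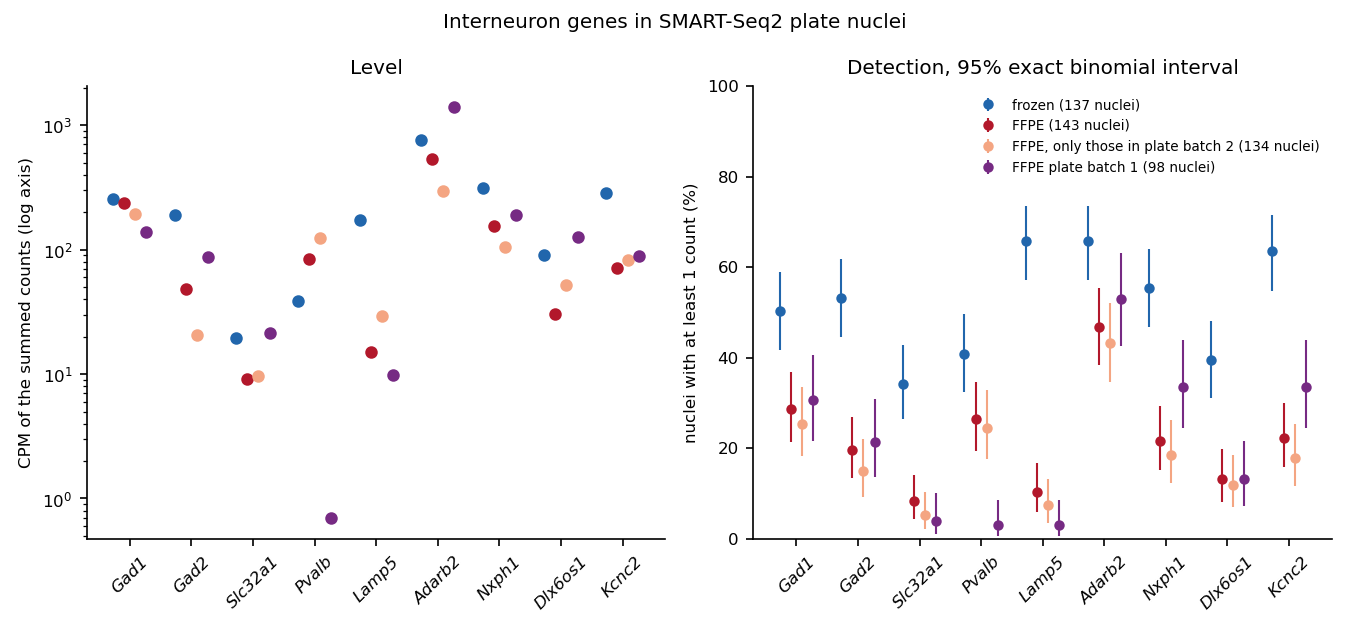
Left, CPM of the summed counts of each gene on a log axis. Right, the share of nuclei with at least 1 count and its exact 95% binomial interval, for frozen nuclei, FFPE nuclei, the FFPE nuclei of plate batch 2 and the separate FFPE batch 1. The frozen share is the highest for all 9 genes, and the Pvalb level of batch 1 lies far below the others.

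The genes tended to fall into the same plate nuclei. In frozen tissue, 56 of 69 nuclei with Gad1 also had Gad2 (81.2%), against 25.0% of the nuclei without Gad1. In FFPE tissue, 19 of 41 nuclei with Gad1 had Gad2 (46.3%), against 8.82% of those without. The glutamatergic marker Slc17a7, a vesicular glutamate transporter, was found in 65.2% of frozen nuclei with Gad1 and 32.4% of those without, and in 31.7% and 34.3% of FFPE nuclei. Depth differed widely between nuclei, and its part in these pairs was not tested. In FFPE nuclei, Dlx6os1 was found in 17 of 41 nuclei with Gad1 and in 1.96% of those without. At 5 counts or more, all 14 FFPE nuclei with Dlx6os1 also had Gad1. Lamp5 was found in 31.7% of FFPE nuclei with Gad1 and 1.96% of those without.

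Gad1 was also found without its usual partners. The FFPE nucleus with the highest Gad1 level had 1069 Gad1 counts of 79549, with 0 counts of Gad2, Slc32a1, Pvalb, Lamp5, Nxph1 and Kcnc2. The 5 FFPE nuclei with the highest Gad1 levels had 0 Gad2 counts in each case. The 5 such frozen nuclei had 2 to 1710 Gad2 counts. Slc32a1 had 0 counts in all 5 of these frozen nuclei, and in the 5 FFPE nuclei except for 2 counts in that of rank 2. At least 1 of the 9 genes was found in 128 of 137 frozen nuclei and in 91 of 143 FFPE nuclei, and 5 or more of them in 66 and 20. All of Gad1, Gad2 and Slc32a1 were found together in 38 frozen and 7 FFPE nuclei.

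**Figure D4:**
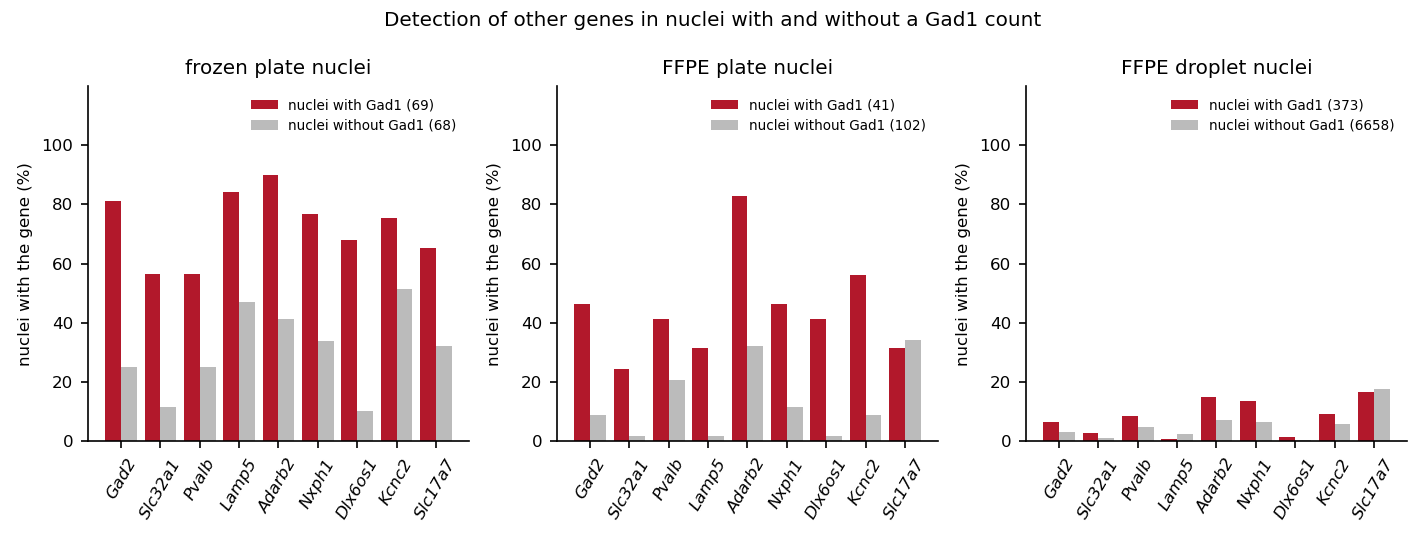
Share of nuclei with at least 1 count of each gene, among nuclei with and without a Gad1 count, in frozen plate nuclei, FFPE plate nuclei and FFPE droplet nuclei. In plate nuclei Gad2 and Dlx6os1 are more frequent beside Gad1, whereas Slc17a7 differs little in FFPE nuclei, and in droplets all shares are low.

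In the droplet nuclei, several of the 9 genes were highest in ExNeuron4 or ExNeuron6. The authors named the neuronal classes ExNeuron1 to ExNeuron6 and no inhibitory class. ExNeuron4 held 716 of 7031 nuclei (10.2%) and ExNeuron6 held 209 (2.97%). Of the 9 genes, 6 had their highest summed level in ExNeuron4 or ExNeuron6, although for Gad2, Slc32a1, Adarb2 and Dlx6os1 the interval overlapped that of the next class. Among genes with at least 50 UMIs, 998 of 7814 (12.8%) and 5 of the 8 members were highest in these classes. The classes were made from these same nuclei and genes, so the levels are a description with no test.

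ExNeuron4 had the highest levels of Kcnc2, Adarb2, Gad2 and Slc32a1. Kcnc2 stood at 698 CPM there (211 UMIs, exact Poisson 95% interval 607 to 798 CPM), and the next class, Endothelial, had 230 CPM. Adarb2 stood at 1402 CPM (424 UMIs, 1272 to 1542 CPM) against 211 CPM in the median class. Gad2 stood at 281 CPM (85 UMIs, 224 to 348 CPM) against 77.3 CPM in the median class and 137 CPM in Microglia, on 4 UMIs. This class held 42.7% of the Adarb2, 39.1% of the Kcnc2 and 33.5% of the Gad2 UMIs of the table. Slc32a1 was also highest in ExNeuron4, at 76.0 CPM (23 UMIs, 48.2 to 114 CPM), but ExNeuron2 at 52.1 CPM lay within that interval. Among genes outside the set, Sst, the neuropeptide of another interneuron class, stood at 479 CPM in ExNeuron4 against 103 CPM in ExNeuron1, Grip1 at 1237 CPM against 170 CPM, and Erbb4 at 1901 CPM against 382 CPM. Erbb4 was also high in OPC, at 1659 CPM. Slc17a7 stood at 337 CPM in ExNeuron4 (102 UMIs), against 729 CPM in ExNeuron1 and 386 CPM in oligodendrocytes. Over whole lists, the interneuron class markers (25 of 26 in the table) summed to 9133 CPM in ExNeuron4 and 4017 CPM in all classes, and the 9 cortical glutamatergic markers to 1782 and 2596 CPM. How well the name suits the class was not tested, and it is called here by the authors' label only.

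ExNeuron6 had the highest level of Gad1. Gad1 stood at 615 CPM there (50 UMIs, 457 to 811 CPM), above its 288 CPM in ExNeuron4 (87 UMIs, 230 to 355 CPM), with intervals that do not overlap. After each nucleus was thinned to 300 UMIs the levels were 467 and 268 CPM with overlapping intervals. Dlx6os1 was highest in ExNeuron6 at 111 CPM, on 9 UMIs, and Adarb2 stood at 960 CPM. Nxph1 stood below OPC and ExNeuron4 only, at 381 CPM (31 UMIs, 259 to 542 CPM), against 188 CPM in the median class. Gad2 (135 CPM, 11 UMIs), Slc32a1 (24.6 CPM, 2 UMIs), Kcnc2 (197 CPM, 16 UMIs) and Lamp5 (36.9 CPM, 3 UMIs) did not stand above the other classes. Meis2 was at 1304 CPM in ExNeuron6 (106 UMIs), against 119 CPM in ExNeuron4, and Slc17a7 at 505 CPM. Meis2 held 106 of the 187 UMIs of the striatal list in ExNeuron6, where Drd1 and Drd2 of that list had none. The striatal list summed to 2301 CPM in ExNeuron6 and 1440 CPM in all classes. The interneuron class markers summed to 4787 and 4017 CPM, and the cortical glutamatergic markers to 2277 and 2596 CPM.

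Oligodendrocyte precursors, labelled OPC, shared Adarb2 and Nxph1 with ExNeuron4. Nxph1 stood at 849 CPM in OPC (65 UMIs, 655 to 1082 CPM) and 757 CPM in ExNeuron4 (229 UMIs, 662 to 862 CPM), which counting error does not separate. Adarb2 stood at 1045 CPM in OPC (829 to 1301 CPM). Gad1 (144 CPM) and Gad2 (39.2 CPM) in OPC were near the levels of other classes, and Lamp5 and Dlx6os1 had 0 UMIs in its 215 nuclei, where 3 UMIs would be 39.2 CPM and the exact upper bound is 48.2 CPM. Pdgfra, which marks such precursors, was highest in OPC at 235 CPM.

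Pvalb and Lamp5 were not highest in ExNeuron4 or ExNeuron6. Pvalb was highest in Endothelial, at 230 CPM, and stood at 185 CPM in ExNeuron4 and 160 CPM in ExNeuron6, and the intervals of all 12 classes overlapped that of Endothelial (122 to 393 CPM). Lamp5 was highest in Microglia at 137 CPM, on 4 UMIs, followed by ExNeuron1 at 106 CPM on 88 UMIs (85.3 to 131 CPM), and stood at 59.5 CPM in ExNeuron4. The Lamp5 interval of ExNeuron1 lay above those of ExNeuron3 (27.4 to 73.0 CPM) and OPC (0 to 48.2 CPM), and ExNeuron1 held 88 of the 179 Lamp5 UMIs and 31.8% of all UMIs. Free RNA can give UMIs in nuclei that do not express a gene. Gad1 was found in 2.01% of oligodendrocyte nuclei, at a median of 314 UMIs per nucleus, in 10.8% of ExNeuron4 nuclei, at 371, and in 20.6% of ExNeuron6 nuclei, at 353. Gad1 was also found in 4.65% of astrocyte and 5.75% of Endothelial nuclei. Pvalb was found in 3.36% of oligodendrocyte, 5.45% of astrocyte, 7.47% of Endothelial and 7.12% of ExNeuron4 nuclei. Its ExNeuron4 share lay above those of oligodendrocytes and astrocytes and below that of Endothelial. The part of free RNA in these shares was not tested. After thinning, Gad1 stood at 7.86% in ExNeuron4 and 14.0% in ExNeuron6.

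**Figure D5:**
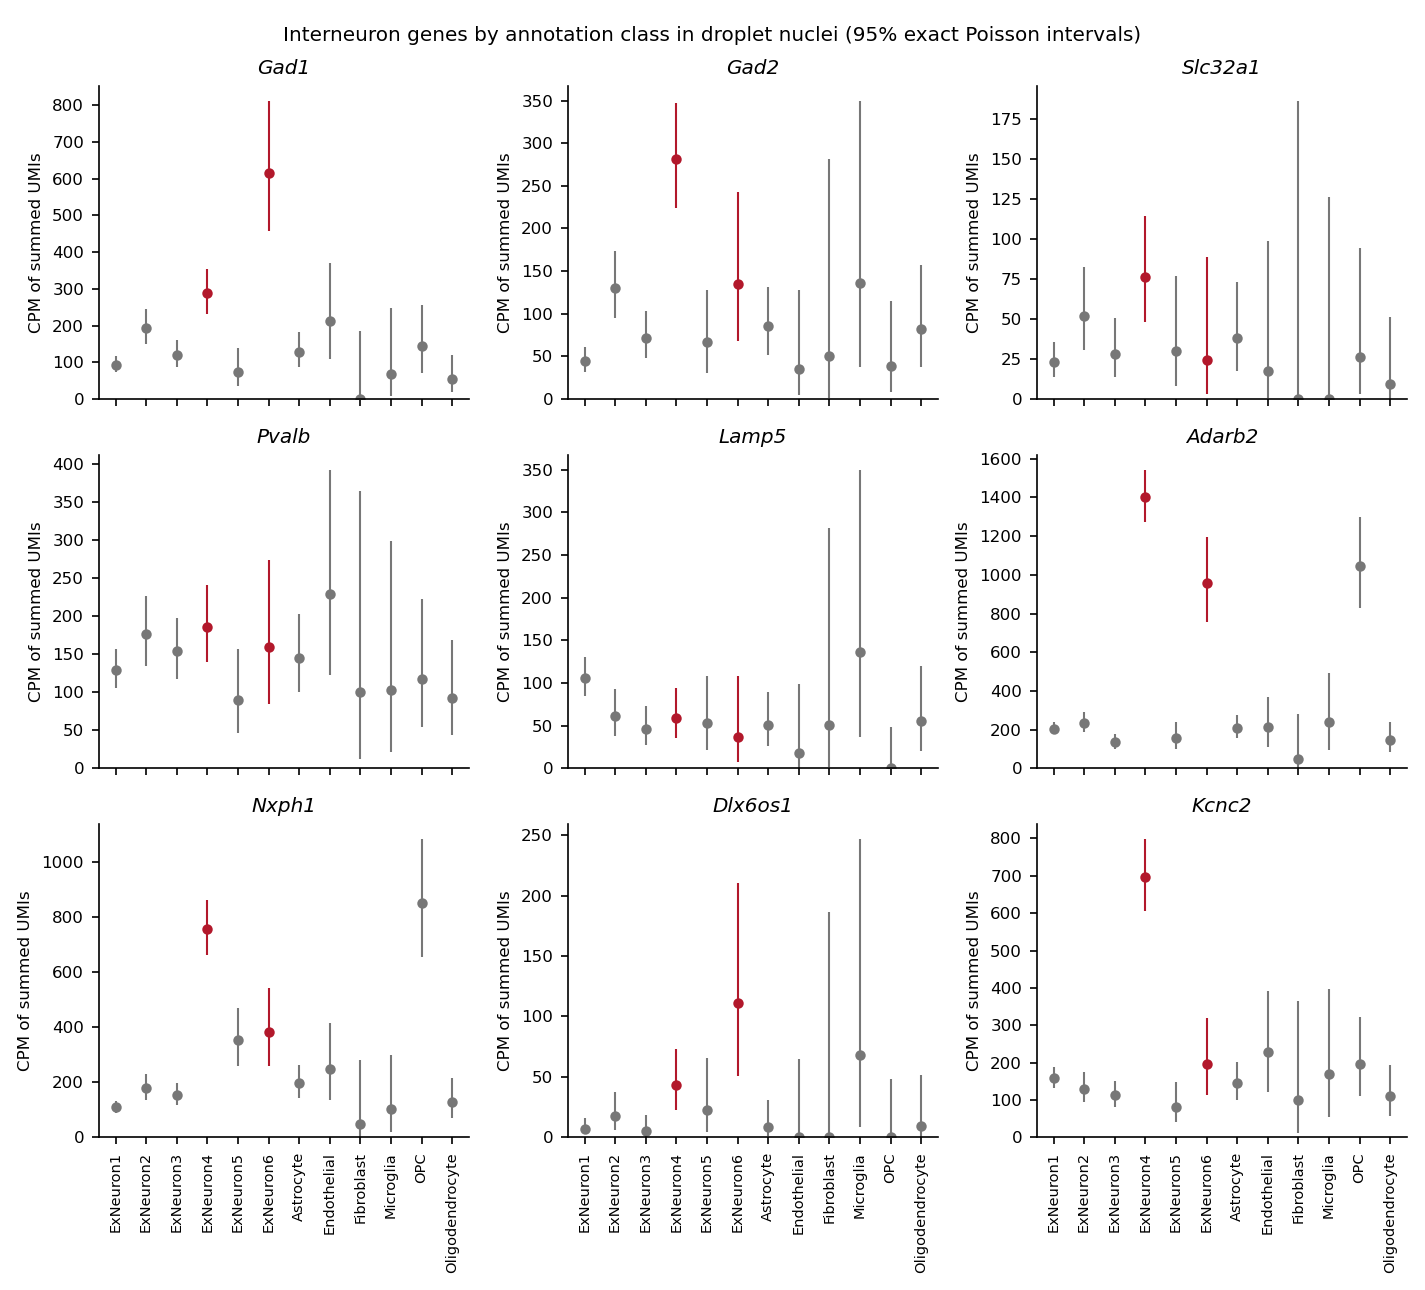
CPM of the summed UMIs of each gene in the 12 annotation classes, with exact 95% Poisson intervals, and with ExNeuron4 and ExNeuron6 in red. ExNeuron4 is highest for Gad2, Adarb2 and Kcnc2, ExNeuron6 for Gad1, OPC matches ExNeuron4 for Nxph1, and Lamp5 is higher in ExNeuron1 than in ExNeuron3 or OPC.

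At this depth few droplet nuclei had more than 1 of the genes. At least 1 of Gad1, Gad2 and Slc32a1 was found in 21.4% of ExNeuron4 and 25.8% of ExNeuron6 nuclei, and in 2.13 to 11.5% of the nuclei of the other 10 classes. At least 2 of the 9 genes were found in 24.6% of ExNeuron4, 19.1% of ExNeuron6 and 14.0% of OPC nuclei. Of 373 droplet nuclei with Gad1, 25 had Gad2 (6.70%), against 3.23% of those without Gad1, and 16 of these 25 were in ExNeuron4. Slc17a7 was found in 16.6% of droplet nuclei with Gad1 and 17.7% of those without.

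The genes most like each member over the 12 classes were found by the correlation of log2(CPM + 10) among 7813 genes with at least 50 UMIs. The points share 1 library, and the values are a description. Adarb2 and Nxph1 were among each other's 5 nearest genes (r = 0.864), and Kcnc2 had Sst (r = 0.815), Adarb2 (0.771) and Grip1 (0.757) among its 5. Nearest to Gad1 was Hs3st5 (r = 0.937), followed by Adarb1, Rcor1, Tardbp and Nomo1, all highest in ExNeuron6. Gad2 had Zfyve9 (0.803) and Slc32a1 had Ift80 (0.929) as the nearest, and neither had the other or Gad1 among its 5. Nearest to Pvalb was Tmem201 (0.848) and to Lamp5 Lnp (0.929), both highest in classes with few nuclei. Dlx6os1 had 44 UMIs, under the minimum of 50.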

How the data were processed

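The authors deposited raw counts of each gene in each well or plate nucleus, and raw UMI counts for droplets, per the file headers and the values, which are whole numbers with different sums. The submitters' processing notes name the builds hg19 and mm10, and the droplet gene table names a pre-mRNA reference of mm10. The aligner and the counter were not found in the labels or headers. Of the 6 samples, plate batch 3 is not analysed here.

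CPM values are counts per 1000000 mouse counts of the well or nucleus. Wells were compared with edgeR 4.0.16 in R 4.3.3 (quasi-likelihood test, TMM scaling, filterByExpr, Benjamini-Hochberg adjustment over all genes tested, threshold 0.05). SCRB-seq contrasts of FFPE and frozen used all 64 wells and method contrasts the 48 FFPE wells. Alternatives were DESeq2 1.42.0, its size factors in edgeR, filters of at least 10 counts or none, the nuclei number as a covariate, single nuclei numbers and leaving out each SMART-Seq2 well. The code was tested on simulated data.

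Plate and droplet nuclei are 1 sample a group and were summed, with exact 95% Poisson and binomial intervals that cover counting error only. Nuclei were thinned to 10000 counts or 300 UMIs, shallower ones being left out (2580 droplet nuclei, 169 of them ExNeuron4 and 59 ExNeuron6). No nucleus was filtered and no doublet caller was run. A floor of 3 counts stood for a zero group.

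The text names all 9 genes, list genes that were called, and the 5 genes most like each member. Members and lists were chosen with earlier results of these data known. Other genes given for droplet classes were chosen after their values were seen.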

Additional observations from a re-analysis of the deposited data

Results flagged for a closer look

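In frozen SCRB-seq wells of 100 nuclei, 1 well held 311 CPM of Adarb2, far from the next at 167 CPM. In frozen wells of 10 nuclei, 1 of 8 held 26.6 CPM of Gad1, a single count, and the others 0, so any count in 1 well alone would mark this group. These were 2 of 16 groups of 8 wells examined for a single distant well, and chance marks about 1 in 20.

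The difference of Gad1 between FFPE and frozen SCRB-seq wells itself differed between wells of 100 and 10 nuclei, by -2.39 on the log2 scale (adjusted p = 0.0421, edgeR interaction test).

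The SCRB-seq table also counts human genes, which the comparisons above do not use. Human ADARB2 had 96 counts in FFPE wells and 6 in frozen wells (28.4 and 5.51 CPM of all counts), and human KCNC2 had 85 and 2 (25.2 and 1.84 CPM). Human genes held 11.8% of all counts in FFPE wells and 2.08% in frozen wells.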

How the results depend on the processing

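Of the alternatives for counts of genes called and for counts from plate and droplet nuclei, 81 kept the count within 1.5 times and 15 did not. The 81 include every alternative of the SMART-Seq2 method pairs, where 0 of the genes were called throughout. With at least 10 counts, and also with no filter, 4 of the 9 genes were called between FFPE and frozen SCRB-seq wells, 6 between mineral oil and heated xylene, 7 between mineral oil and room-temperature xylene, 1 between the xylene treatments, and 3 between FFPE and frozen SMART-Seq2 wells. More genes are tested under these filters. In wells of 10 nuclei alone the SCRB-seq count was 1, since Adarb2 was at 0.87 (adjusted p = 0.153, edgeR). DESeq2 called 3 in SMART-Seq2. Leaving out 1 SMART-Seq2 well gave 1 to 2 calls, the second being Kcnc2 at -1.92 when the 10-nuclei well of room-temperature xylene was left out and -2.85 for its 50-nuclei well. Thinned to 10000 counts, 1 of the 9 genes (Adarb2) had the larger share of plate nuclei in FFPE, against 0. 2 values changed sign, neither called: Gad1 between the xylene treatments in wells of 100 nuclei (0.10), and Nxph1 between FFPE and frozen SMART-Seq2 wells, which ran from -1.55 to 0.81 and was positive only without the frozen well of 50 nuclei. The causes were not tested.

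Over all genes, FFPE and frozen SCRB-seq wells gave 857 calls, 4637 with at least 10 counts, 4785 with no filter and 478 in wells of 10 nuclei. Mineral oil against heated xylene gave 92, and 3585, 3415, 143 with the nuclei number as a covariate and 256 in wells of 100. Against room-temperature xylene the calls were 111, 2968, 2925, 201 and 178. Between the xylene treatments they were 21, 2845, 2899, 62 and 117, and 33 with DESeq2. SMART-Seq2 gave 372 between FFPE and frozen, 641 with DESeq2, and 162, 187 and 174 without the frozen well of 10, 50 or 100 nuclei. Its 3 method pairs gave 0, and at most 26 under any alternative. No paired analysis was possible because the labels tie no well of a method to a well of another beyond its number of nuclei, which was fitted as a covariate. Depth limits the droplet values: Dlx6os1 rests on 44 UMIs and Slc32a1 on 90.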
